A study of Sus scrofa with 11 samples.

Results

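Leukotrienes are lipid mediators that leukocytes make from arachidonic acid, and the 10 genes described here encode the steps of that route: the phospholipase PLA2G4A, the lipoxygenase ALOX5 with its helper protein ALOX5AP, the converting enzymes LTA4H, LTC4S and GGT5, the receptors LTB4R and CYSLTR1, and the related lipoxygenases ALOX12 and ALOX15. The genes were taken by symbol, and all 10 had values among the 30376 genes measured in full-thickness skin wounds of the pig. Levels are in FPKM, read fragments scaled by gene length and by a divisor for each library. Of the 10 genes, 9 passed the filter on low values, at least 0.5 FPKM in 4 or more libraries, and ALOX15 did not. No member was called higher or lower in diabetic wounds by limma on log2 FPKM, a call that 3.00% of the 13956 genes tested received (1.35% higher, 1.66% lower). The paper, which tested counts with DESeq2 at the same thresholds, names GGT5 among the genes upregulated in diabetic wounds. Here the test and the values differed from those of the paper, and why GGT5 was not called was not tested. The difference with the smallest p was that of GGT5, the enzyme that turns leukotriene C4 into D4, with an adjusted p of 0.101 (limma). GGT5 was higher in each of the 7 diabetic wounds than in any non-diabetic wound, the nearest being at 2.24 and 2.20 FPKM. Groups that did not overlap were found for 5.65% of all tested genes, 2.69% with the diabetic wounds higher.

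Bulk RNA was sequenced from 7 wounds of a diabetic and 4 wounds of a non-diabetic female Yucatan minipig. Diabetes had been induced in the diabetic animal at 6 months of age with streptozotocin (STZ, 125 mg/kg), a toxin of the insulin-producing beta cells, and insulin was given and then withdrawn before wounding. The age of the non-diabetic animal is not given in the sources used here. It received identical 2 cm punch wounds, and on day 10 the wounds of both animals were sampled for RNA with biopsy punches. Each group is 1 minipig. A p-value here therefore reflects how wounds of a single animal vary, and diabetes cannot be told apart from any other difference between the 2 animals.

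In the pathway, cytosolic phospholipase A2 releases arachidonic acid from membranes, and ALOX5, to which ALOX5AP presents the substrate, oxidises it to leukotriene A4. LTA4H hydrolyses leukotriene A4 to leukotriene B4, a neutrophil attractant, whereas LTC4S joins it to glutathione to form the cysteinyl leukotrienes, which act on mast cells, eosinophils, vessels and smooth muscle. ALOX12 and ALOX15 oxidise the same fatty acid at other carbons, and ALOX12 is known from platelets and from the epidermis. In skin, neutrophils, macrophages, mast cells and Langerhans cells are known sources of leukotrienes, and keratinocytes hold LTA4H.

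The DNA just upstream of 3 of the genes is shown because it holds a repeated motif and because these genes are the lipoxygenase and helper at the head of the route and the most abundant lipoxygenase among the members. Capitals mark GGGCGG, the core of the GC box bound by Sp1-type factors, on either strand. The stretches end at the base before the annotated start of each gene in the Sscrofa11.1 reference genome of RefSeq and are written 5′ to 3′ along the gene's own strand.
ALOX5 (chr14:90907085-90907164, minus strand): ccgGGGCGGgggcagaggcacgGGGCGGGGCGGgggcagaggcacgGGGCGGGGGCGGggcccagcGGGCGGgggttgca
ALOX5AP (chr11:7371228-7371327, plus strand): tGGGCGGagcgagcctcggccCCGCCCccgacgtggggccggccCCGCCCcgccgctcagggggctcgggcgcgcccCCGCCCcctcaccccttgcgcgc
ALOX12 (chr12:52401721-52401860, plus strand): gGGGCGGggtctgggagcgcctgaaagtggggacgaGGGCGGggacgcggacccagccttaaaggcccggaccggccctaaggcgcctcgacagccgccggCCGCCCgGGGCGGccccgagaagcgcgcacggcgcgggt
In the 80 bases before ALOX5 the motif occurred 6 times, in places overlapping with itself. In the 250 bases before the start it was found 8 times for ALOX5, 5 times for ALOX5AP and 4 times each for ALOX12 and ALOX15. It was found once for LTC4S and not at all for LTA4H, GGT5, CYSLTR1, LTB4R or PLA2G4A. Of 19556 windows of the same length before protein-coding genes, 45.9% held the motif at least once, and 0.813% held it as often as the ALOX5 window or more often. The share was 5.23% for the number found before ALOX5AP and 9.06% for that before ALOX12. The windows were rich in G and C, with 68.4% for ALOX5, 81.2% for ALOX5AP and 77.6% for ALOX12 against a median of 57.6% over all windows. All 140 bases shown for ALOX12 also lie in an exon of the noncoding gene LOC110256106 on the other strand, and the stretches shown for ALOX5 and ALOX5AP overlap no other annotated gene. Further upstream, the windows of 250 bases reach into LOC100152956 for ALOX5 and LOC110255801 for ALOX5AP. The matches are letters in a sequence, and binding was not measured here.

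On the same build, the genes lie apart from each other except for a pair on chromosome 12. ALOX5 spans chr14:90859209-90907084 and GGT5 chr14:49638184-49663007, ALOX5AP spans chr11:7371328-7438111, and LTA4H spans chr5:87486552-87518520. LTC4S lies at chr2:78799446-78802281, LTB4R at chr7:74972723-74978266, PLA2G4A at chr9:127853581-128164825 and CYSLTR1 at chrX:62380778-62407736. ALOX12 at chr12:52401861-52414913 and ALOX15 at chr12:52287174-52295873 are the neighbouring pair. Each value below covers the whole gene as the authors counted it. The PLA2G4A gene shares 5286 bases, 108 of them exonic, with PTGS2 on the other strand, ALOX12 shares 328 exonic bases with LOC110256106, and LTC4S shares 53 exonic bases with LOC106507308. The strand setting of the counting is not given in the sources used here, so for these 3 genes reads of the opposite gene cannot be told apart from their own.

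The depth was 28314785 to 40168372 reads on genes in the diabetic wounds and 32961018 to 36872400 in the non-diabetic wounds. For a gene of 2 kb, 1 read was worth 0.0112 to 0.0194 FPKM. A pair of wounds stood apart from the rest: diabetic wound 4 and non-diabetic wound 1 had summed keratinocyte gene levels of 43.4 and 261 FPKM, against 1679 to 6425 FPKM in the other diabetic and 1396 to 2545 FPKM in the other non-diabetic wounds. The same pair lay at 76.0 and 72.2 on the first principal component (44.5% of the variance), where every other wound was below 0. These 2 wounds are called the keratinocyte-poor wounds here, and differences are also given without them. The samples were bulk tissue from biopsy punches of the wounds, so fewer cells of a type and less RNA per cell cannot be told apart. Nor can either be told apart from where a punch fell. Leukocyte genes were present in both groups, with summed levels of PTPRC (CD45), LAPTM5 and CORO1A of 101 to 134 FPKM in diabetic and 90.7 to 124 FPKM in non-diabetic wounds.

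The 10 genes spanned a wide range of levels. FPKM was scaled by 1 length per gene, such as 661 bases for LTC4S, 2640 for ALOX5, 5944 for ALOX5AP and 6973 for PLA2G4A. The length of the transcripts present was not measured, so comparisons of level between genes are approximate. Mean FPKM over the 11 wounds was 18.1 for LTA4H, 9.29 for ALOX12, 2.88 for ALOX5AP, 2.65 for GGT5 and 1.89 for PLA2G4A. It was 1.13 for LTB4R, 1.09 for LTC4S, 0.949 for ALOX5, 0.640 for CYSLTR1 and 0.0456 for ALOX15. LTA4H was above ALOX12 in 11 of 11 wounds, ALOX12 above ALOX5AP in 10, and CYSLTR1 above ALOX15 in 11. The genes between these steps changed places from wound to wound: ALOX5AP was above GGT5 in 6 of 11 wounds, LTB4R above LTC4S in 6, LTC4S above ALOX5 in 7 and ALOX5 above CYSLTR1 in 7. Within the route, ALOX5AP exceeded ALOX5 in 11 of 11 wounds and LTA4H exceeded LTC4S in 11 of 11. By mean level, ALOX12 lay at the percentile 64.6 of all genes tested, ALOX5AP at 33.4 and ALOX5 at 12.2.

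**Figure D1:**
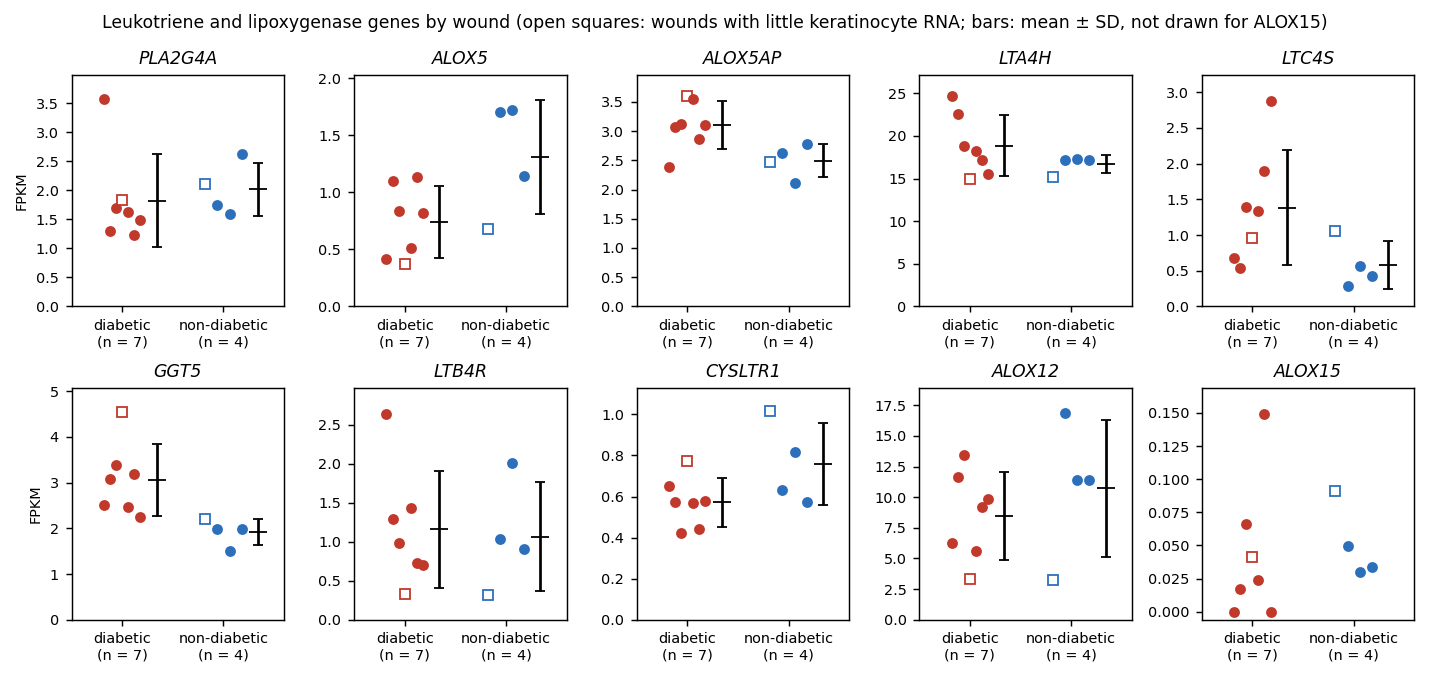
FPKM of the 10 genes in each wound, with 7 diabetic wounds in red and 4 non-diabetic wounds in blue; open squares are the 2 keratinocyte-poor wounds and black bars the mean ± SD (not drawn for ALOX15). GGT5 is the panel in which the groups do not overlap, with diabetic wounds at 2.24 to 4.55 FPKM and non-diabetic wounds at 1.51 to 2.20 FPKM, and the ALOX15 axis ends below 0.2 FPKM.

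PLA2G4A, the cytosolic phospholipase A2 that frees arachidonic acid, was measured at 1.23 to 3.57 FPKM in the diabetic wounds, with a median of 1.62. The non-diabetic wounds had 2.11, 1.74, 1.59 and 2.62 FPKM. The groups overlapped, and the diabetic range was stretched by wound 1 at 3.57 FPKM, the next diabetic wound being at 1.83. The means were 1.82 ± 0.802 FPKM (SD, n = 7) and 2.02 ± 0.457 FPKM (SD, n = 4). On the log2(FPKM + 0.5) scale used for all differences, diabetic minus non-diabetic was -0.16 (SE 0.22, 95% interval -0.64 to 0.32, limma adjusted p = 0.754). It was -0.31 without diabetic wound 1 and -0.05 without non-diabetic wound 4. PTGS2, the inducible cyclooxygenase whose gene overlaps it, ranged from 0.390 to 45.3 FPKM over the wounds. It was at 45.3 FPKM in diabetic wound 1 and at 31.5 FPKM in diabetic wound 5, where PLA2G4A was at 1.62 FPKM.

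ALOX5, the 5-lipoxygenase itself, had 0.370 to 1.14 FPKM in the diabetic wounds, with a median of 0.823. In the non-diabetic wounds it had 0.675, 1.70, 1.72 and 1.15 FPKM. All 7 diabetic wounds lay under the 3 non-diabetic wounds other than the keratinocyte-poor one, and 3 lay under all 4, so the groups overlapped only through non-diabetic wound 1. The margin was small, with diabetic wound 6 at 1.139 FPKM (79 reads) and non-diabetic wound 4 at 1.147 FPKM (118 reads). The means were 0.742 ± 0.317 FPKM (SD, n = 7) and 1.31 ± 0.501 FPKM (SD, n = 4), which rest on 31 to 130 and 51 to 158 reads. The log2 difference was -0.54 (SE 0.23, 95% interval -1.05 to -0.03), with an unadjusted p of 0.0405 and an adjusted p of 0.245 (limma), and an exact two-sided permutation test over the 330 splits of the wounds gave p = 0.0697. Without the keratinocyte-poor wounds it was -0.65 (limma adjusted p = 0.183).

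ALOX5AP, the membrane protein that presents arachidonic acid to ALOX5, had the opposite sign. It was measured at 2.38 to 3.60 FPKM in the diabetic wounds, with a median of 3.11, and at 2.48, 2.63, 2.10 and 2.77 FPKM in the non-diabetic wounds. In 6 of the 7 diabetic wounds it was above every non-diabetic wound, and diabetic wound 1 at 2.38 FPKM was the exception. The means were 3.10 ± 0.412 FPKM (SD, n = 7) and 2.50 ± 0.288 FPKM (SD, n = 4). The log2 difference was 0.26 (SE 0.11, 95% interval 0.01 to 0.51), with an adjusted p of 0.242 (limma) and an exact permutation p of 0.0333. Without the keratinocyte-poor wounds it was 0.23 (limma adjusted p = 0.458). The smallest p that this test can give is 0.00303, and permutation p-values are not adjusted over the genes.

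The balance of the lipoxygenase and its helper can be read from the ratio of ALOX5 FPKM to ALOX5AP FPKM, which was looked at after the values had been seen and is given without a test. It was 0.174, 0.359, 0.268, 0.103, 0.144, 0.397 and 0.265 in diabetic wounds 1 to 7. It was 0.273, 0.648, 0.818 and 0.414 in non-diabetic wounds 1 to 4. The 3 non-diabetic wounds other than the keratinocyte-poor one lay above all diabetic wounds, and the keratinocyte-poor non-diabetic wound lay among them. ALOX5 was also set against PTPRC, the CD45 gene of all leukocytes, as a log2 ratio. The mean was -3.30 ± 0.607 (SD, n = 7) in diabetic and -2.77 ± 0.436 (SD, n = 4) in non-diabetic wounds, a difference of -0.53 that did not pass an exact permutation test (p = 0.161, adjusted over 4 ratios 0.319). For ALOX5AP to PTPRC the difference was 0.27 (exact permutation p = 0.330, adjusted 0.330), and it was -0.36 among the wounds whose library names carry the letter L and 0.83 among those with the letter R. Leaving out 1 wound at a time moved it between 0.13 and 0.39, and moved ALOX5 to PTPRC between -0.70 and -0.34. PTPRC itself had a log2 difference of -0.01 (limma adjusted p = 0.986).

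LTA4H, which makes leukotriene B4, was the most abundant of the 10 genes. It had 14.9 to 24.7 FPKM in diabetic wounds, with a median of 18.3, and 15.2, 17.2, 17.3 and 17.2 FPKM in non-diabetic wounds. Diabetic wounds 1 and 2 were the highest, while 3 of the 4 non-diabetic wounds lay within a narrow band inside the diabetic range. Diabetic minus non-diabetic was 0.15 on the log2 scale (SE 0.13, 95% interval -0.14 to 0.45, limma adjusted p = 0.604). It was 0.43 among wounds with the letter L in the library name (3 diabetic, 2 non-diabetic) and -0.07 among those with the letter R (4 and 2). What the letters stand for is not given in the sources used here.

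LTC4S, which competes with LTA4H for leukotriene A4 and makes leukotriene C4, had 0.542 to 2.88 FPKM in diabetic wounds, with a median of 1.34. The values of the non-diabetic wounds were 1.06, 0.285, 0.565 and 0.427 FPKM. Diabetic wounds 3, 5, 6 and 7 were above every non-diabetic wound, and the other 3 lay below the highest non-diabetic one, the keratinocyte-poor wound 1. The means were 1.38 ± 0.805 FPKM (SD, n = 7) and 0.584 ± 0.336 FPKM (SD, n = 4), from 16 to 49 and 6 to 20 reads. The log2 difference was 0.74 (SE 0.31, 95% interval 0.06 to 1.42), with an adjusted p of 0.227 (limma) and an exact permutation p of 0.0545. It was 0.97 without the keratinocyte-poor wounds (limma adjusted p = 0.209), 0.26 among the L wounds and 1.12 among the R wounds. The gene passed the threshold only when limma gave each library its own weight, where the difference was 1.04 (adjusted p = 0.0313).

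The log2 ratio of LTC4S to LTA4H, which sets the cysteinyl branch against the leukotriene B4 branch, was -4.47 to -2.25 in diabetic wounds and -4.50 to -3.33 in non-diabetic wounds. The groups overlapped, with 2 of the 7 diabetic wounds above every non-diabetic one. The difference of the means was 0.59 (exact permutation p = 0.239, adjusted 0.319). It was -0.17 among the L wounds and 1.18 among the R wounds, and between 0.39 and 0.82 with 1 wound left out.

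GGT5, the gamma-glutamyl transferase that cleaves leukotriene C4 to D4, had 2.24 to 4.55 FPKM in the diabetic wounds, with a median of 3.08. Non-diabetic wounds 1 to 4 had 2.20, 1.99, 1.51 and 1.99 FPKM. The groups did not overlap, though the lowest diabetic wound (wound 7) was close to the highest non-diabetic wound. No other tested member had groups that did not overlap. Of all tested genes, 5.65% had groups that did not overlap, 2.69% with the diabetic wounds higher and 2.96% with them lower. The means were 3.06 ± 0.781 FPKM (SD, n = 7) and 1.92 ± 0.293 FPKM (SD, n = 4). On the log2 scale the difference was 0.54 (SE 0.16, 95% interval 0.18 to 0.89), with an unadjusted p of 0.00677 and an adjusted p of 0.101 (limma), and an exact permutation p of 0.00606. The highest value belonged to the keratinocyte-poor diabetic wound 4, and without both keratinocyte-poor wounds the difference was 0.50 (limma adjusted p = 0.142). It was 0.42 among the L wounds and 0.65 among the R wounds, and with library weights it was 0.53 and passed the threshold (adjusted p = 0.0453).

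**Figure D2:**
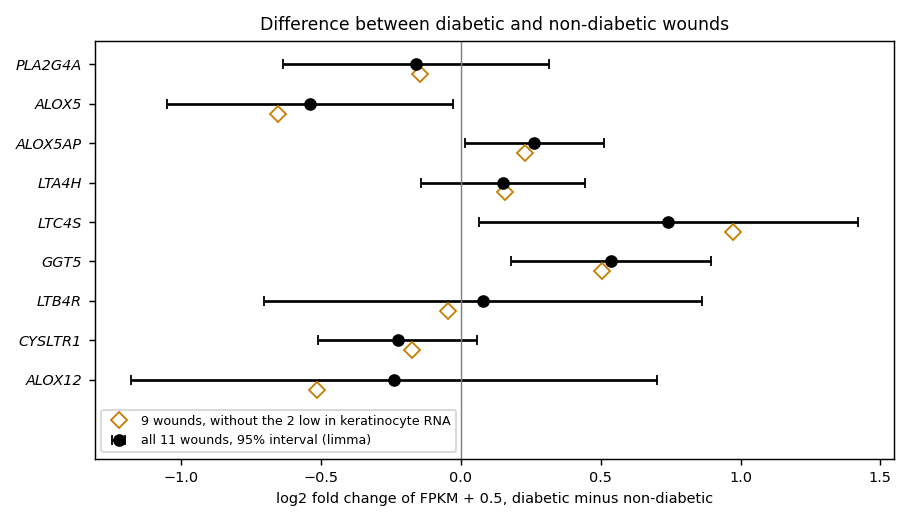
Log2 fold change of FPKM + 0.5 in diabetic minus non-diabetic wounds for the 9 genes that passed the filter; filled points are all 11 wounds with the 95% interval from limma, and open diamonds the 9 wounds left without the keratinocyte-poor pair. The intervals of ALOX5, ALOX5AP, LTC4S and GGT5 leave out 0, and no adjusted p was under 0.05.

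Among the 9 tested members, 4 had an unadjusted p under 0.05 (ALOX5, ALOX5AP, LTC4S and GGT5), where 18.4% of all tested genes did. The median log2 difference of the 9 was 0.08, with 5 above 0, and the median over all genes tested was 0.01. Levels of cell type markers are given beside these differences. Summed levels of 9 macrophage genes were 554 to 1223 FPKM in diabetic and 349 to 661 FPKM in non-diabetic wounds, and 3 of the 9, CD14, MRC1 and MARCO, were called higher (limma). Without the keratinocyte-poor wounds MRC1 and MARCO stayed called and CD14 did not (adjusted p = 0.0918). MRC1 encodes CD206, and the paper reports fewer CD206-positive macrophages in diabetic wounds by immunostaining. RNA of bulk tissue and stained cells are different measures, and the reason for the opposite directions was not tested. The 5 mast cell genes with values summed to 3.96 to 14.1 FPKM in diabetic and 3.44 to 6.54 FPKM in non-diabetic wounds, with CPA3 at 0 in all wounds. Of the 3 mast cell genes tested none was called (limma), FCER1A being at a log2 difference of 1.07 (adjusted p = 0.199), MS4A2 at 0.41 (0.344) and KIT at -0.36 (0.471). The 3 eosinophil genes with values summed to 0.439 to 0.850 against 0.142 to 0.351 FPKM, with EPX at 0 in all wounds. The sum was nearly all CCR3 (0.439 to 0.850 against 0.142 to 0.343 FPKM), with IL5RA at most 0.0176 FPKM. CCR3, the 1 gene tested, passed the filter through the diabetic wounds alone and was not called (0.52, limma adjusted p = 0.0593). The B and plasma cell genes summed to 45.6 to 104 against 14.8 to 78.1 FPKM, and 3 of the 4 tested were called higher. Of these, CD79A alone stayed called without the keratinocyte-poor wounds. CD79B, also called, was at most 0.413 FPKM in non-diabetic wounds. It passed the filter through the diabetic wounds alone, so its call does not count as separate support. The 7 neutrophil genes with values, led by the S100A8, S100A9 and S100A12 genes that keratinocytes can also express, summed to 42.7 to 10790 FPKM in diabetic and 301 to 12590 FPKM in non-diabetic wounds, lowest in the keratinocyte-poor wound of each group, and of 6 tested none was called or had an unadjusted p under 0.05 (limma). The paper reports more myeloperoxidase staining in diabetic wounds, whereas MPO RNA did not pass the filter here. The part of the cell types above in the values of ALOX5AP, LTC4S and GGT5 was not tested.

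LTB4R, the high-affinity receptor of leukotriene B4, had 0.326 to 2.64 FPKM in diabetic wounds, with a median of 0.979. The non-diabetic wounds had 0.318, 1.03, 2.01 and 0.912 FPKM. The lowest value in each group was that of its keratinocyte-poor wound, and the highest was diabetic wound 1. The log2 difference was 0.08 (SE 0.36, 95% interval -0.70 to 0.86, limma adjusted p = 0.938), and it was -0.05 without the keratinocyte-poor wounds. It was 0.86 among the L wounds and -0.60 among the R wounds. LTB4R2, the low-affinity receptor gene that lies 604 bases away, was at 0.566 to 6.38 FPKM in diabetic and 0.628 to 2.94 FPKM in non-diabetic wounds, and its log2 difference was 0.66 (limma adjusted p = 0.473).

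CYSLTR1, the receptor of leukotriene D4, had 0.422 to 0.774 FPKM in diabetic wounds, with a median of 0.574. The non-diabetic wounds had 1.02, 0.630, 0.817 and 0.575 FPKM. In 4 of the 7 diabetic wounds it was below every non-diabetic wound, and the keratinocyte-poor wound was the highest of its group in both animals. The means were 0.572 ± 0.120 FPKM (SD, n = 7) and 0.759 ± 0.200 FPKM (SD, n = 4). The log2 difference was -0.23 (SE 0.13, 95% interval -0.51 to 0.06, limma adjusted p = 0.393), with an exact permutation p of 0.0848. CYSLTR2, the other cysteinyl leukotriene receptor, was at 1.20 to 2.70 FPKM in diabetic and 1.99 to 3.76 FPKM in non-diabetic wounds, with a log2 difference of -0.38 (limma adjusted p = 0.350).

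ALOX12, the 12-lipoxygenase, was the lipoxygenase with the highest level among the members. It had 3.34 to 13.4 FPKM in diabetic wounds, with a median of 9.16, and 3.24, 16.8, 11.4 and 11.4 FPKM in non-diabetic wounds. As with LTB4R, the lowest wound of each group was the keratinocyte-poor one. The means were 8.47 ± 3.57 FPKM (SD, n = 7) and 10.7 ± 5.61 FPKM (SD, n = 4), and the log2 difference was -0.24 (SE 0.43, 95% interval -1.18 to 0.70, limma adjusted p = 0.823). Without the keratinocyte-poor wounds it was -0.52 (limma adjusted p = 0.393). Without non-diabetic wound 2, the highest, it was 0.04. It was 0.38 among the L wounds and -0.77 among the R wounds. Summed levels of 5 platelet genes, the other known source of ALOX12, were 3.14 to 5.96 FPKM in diabetic and 3.86 to 4.75 FPKM in non-diabetic wounds.

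**Figure D3:**
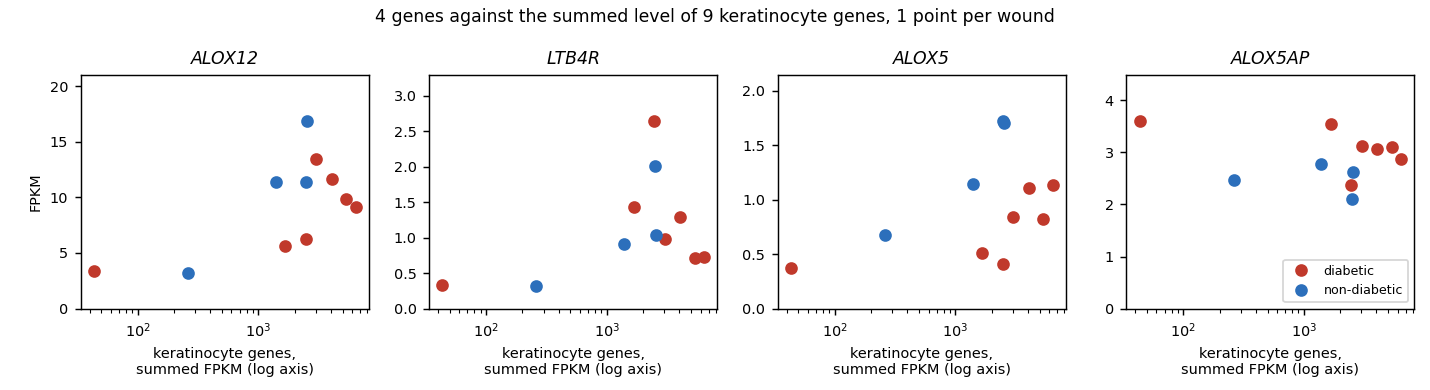
FPKM of ALOX12, LTB4R, ALOX5 and ALOX5AP against the summed FPKM of 9 keratinocyte genes (log axis), 1 point per wound, diabetic in red and non-diabetic in blue. The wounds at 43.4 and 261 FPKM of keratinocyte genes hold the lowest ALOX12 values (3.34 and 3.24 FPKM) and the lowest LTB4R values (0.326 and 0.318 FPKM), while ALOX5AP at 3.60 FPKM is highest in the first of them.

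ALOX15, the lipoxygenase that oxidises arachidonic acid at carbon 15 or 12 and takes part in lipoxin formation, was near the limit of detection. Diabetic wounds 1 and 7 had 0 reads, which allows up to 3 reads, and the other diabetic wounds had 3 to 15 reads, at most 0.149 FPKM. The non-diabetic wounds had 0.0912, 0.0492, 0.0300 and 0.0335 FPKM, from 4 to 10 reads. The difference on the log2 scale was -0.03 (exact permutation p = 0.748), and a difference between the groups was not detectable at this depth. The log2 ratio of ALOX15 to ALOX5 was 0.51 higher in diabetic wounds (exact permutation p = 0.0697, adjusted 0.279), and with ALOX15 this low it follows the ALOX5 values.

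**Figure D4:**
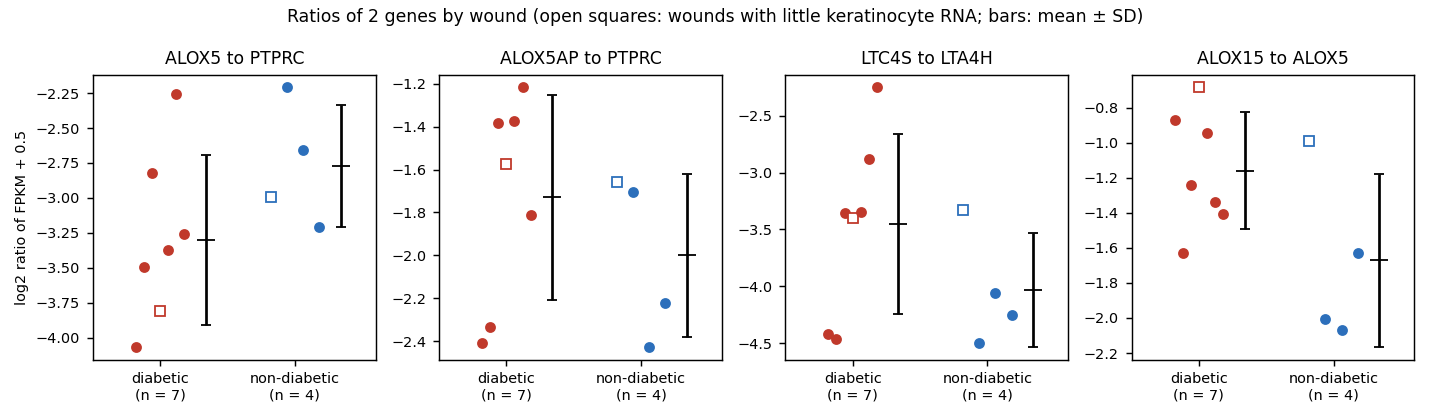
Log2 ratios of FPKM + 0.5 for ALOX5 to PTPRC, ALOX5AP to PTPRC, LTC4S to LTA4H and ALOX15 to ALOX5 in each wound; open squares are the keratinocyte-poor wounds and bars the mean ± SD of 7 diabetic (red) and 4 non-diabetic (blue) wounds. The groups overlap in all 4 panels, and adjusted p-values of the exact permutation test were 0.279 to 0.330.

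The other genes of the route were given by list. Of 5 further leukotriene genes tested, 4 enzymes and the ALOX5 partner COTL1, none was called (limma). The list was not limited to enzymes of synthesis. Of the 5, 3 had an unadjusted p under 0.05 (MGST2, MGST3 and COTL1), and the median log2 difference was 0.51, with 5 of 5 above 0. COTL1, an actin-binding protein that binds ALOX5, was the most abundant at 59.9 to 109 FPKM in diabetic and 35.2 to 65.4 FPKM in non-diabetic wounds, with a log2 difference of 0.54 (adjusted p = 0.181). The 2 other lipoxygenases tested, ALOX12B and ALOXE3, which build the epidermal water barrier, were not called (limma), and neither had an unadjusted p under 0.05. ALOX12B was at 1.21 to 39.4 FPKM in diabetic and 0.457 to 22.4 FPKM in non-diabetic wounds, lowest in the keratinocyte-poor wound of each group. Of 6 further receptors, none was called and none had an unadjusted p under 0.05 (limma), with LTB4R2 the most abundant.

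Upstream of the route, 1 of 14 phospholipases and arachidonate-handling genes tested was called higher and none lower. Of the 14, 2 had an unadjusted p under 0.05 (limma), where 18.4% of all tested genes did. The called gene was PLA2G12A, a secreted phospholipase A2, at 16.5 to 19.7 FPKM in diabetic and 10.2 to 13.6 FPKM in non-diabetic wounds, a log2 difference of 0.57 (SE 0.09, limma adjusted p = 0.00511). Without the keratinocyte-poor wounds PLA2G12A stayed called at 0.61 (adjusted p = 0.0144). PLA2G4B was the most abundant of the list at 7.81 to 54.5 FPKM in diabetic and 8.03 to 44.7 FPKM in non-diabetic wounds, with a log2 difference of 0.41 (limma adjusted p = 0.739). In the cyclooxygenase branch, which draws on the same arachidonic acid, 1 of 10 tested genes was called higher and none lower. Of the 10, 7 had a log2 difference above 0 and 3 had an unadjusted p under 0.05 (limma). The called gene was PTGS1, the constitutive cyclooxygenase, at 4.68 to 10.7 FPKM in diabetic and 1.06 to 2.68 FPKM in non-diabetic wounds, a log2 difference of 1.58 (SE 0.23, limma adjusted p = 0.00389). PTGS1 stayed called at 1.64 without the keratinocyte-poor wounds (adjusted p = 0.0203). PTGES, at 4.64 to 13.5 FPKM in diabetic and 1.28 to 5.68 FPKM in non-diabetic wounds, had a log2 difference of 1.22 (limma adjusted p = 0.0665). TBXAS1 had 0.64 (limma adjusted p = 0.101), and neither was called. The paper names both PTGES and PTGS1 among its upregulated genes. PTGES3 was the most abundant of that list, at 18.3 to 25.5 and 16.7 to 18.9 FPKM, and was not called (limma adjusted p = 0.335). Genes under the filter could not be called. Of those, HPGDS was at 0 to 0.348 FPKM in diabetic and 0.374 to 0.586 FPKM in non-diabetic wounds. PLA2G5 of the phospholipase list was at 0 to 0.0265 and 0.112 to 0.334 FPKM. Both rest on at most 22 reads per wound, and the other genes under the filter in these lists overlapped between the groups.

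Of 7 genes that handle hydroperoxides, epoxides or fatty acid desaturation, 1 was called higher and 1 lower, and 4 had an unadjusted p under 0.05 (limma). GPX1, a glutathione peroxidase that reduces lipid and hydrogen peroxides and the most abundant of the list, was at 243 to 311 FPKM in diabetic and 146 to 175 FPKM in non-diabetic wounds, a log2 difference of 0.81 (SE 0.09, limma adjusted p = 0.000936). FADS1, the desaturase that makes arachidonic acid from its precursor, was at 7.75 to 13.3 FPKM in diabetic and 13.6 to 21.0 FPKM in non-diabetic wounds, and its level fell by 0.76 on the log2 scale (SE 0.15, limma adjusted p = 0.0224). The paper also names GPX1 as upregulated and FADS1 as downregulated. Without the keratinocyte-poor wounds GPX1 stayed called (adjusted p = 0.00719) and FADS1 did not (-0.81, adjusted p = 0.0722). Neither these 4 calls nor the absence of calls among the members was tested as a difference between lists.

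Genes whose levels moved closely like those of each member, after the group means had been taken out, were listed by Pearson's r over the 11 wounds as a description. ALOX5 went with GATA3 (r = 0.964), PDCD4 (0.963) and OCLN (0.957), and ALOX12 with FADS6 (0.988), CLIC3 (0.965) and SCNN1A (0.964). ALOX5AP went with C1R (0.912), DUSP23 (0.902) and MUTYH (0.895), and LTC4S with FPGS (0.930), ANTXRL (0.926) and HES6 (0.902). LTA4H had USP15 (0.975), HNRNPK (0.967) and NAA15 (0.964), and LTB4R had ADSS (0.976) and LSM12 (0.972). GGT5 had APOBEC3B (0.971), ZNF341 (0.941) and MEOX2 (0.907), CYSLTR1 had ALDH1L2 (0.926), ZNF25 (0.919) and C6H19orf33 (0.913), and PLA2G4A had LNPK (0.930), ATP11A (0.930) and C1H9orf40 (0.907). The wounds share their library depth and the keratinocyte-poor pair, which by itself can give high values of r. Each gene listed was also picked for a high r among all tested genes. By ranks (Spearman) PLA2G4A had 0.909 with LNPK, 0.782 with ATP11A and 0.618 with C1H9orf40.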

How the data were processed

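Bulk RNA of 11 day 10 wounds was analysed, 7 of the diabetic and 4 of the non-diabetic minipig, with groups and replicate numbers from the sample titles. The authors trimmed reads with fastp, aligned them with HISAT2 2.2.1 to the Sscrofa11.1 genome and counted them with featureCounts 2.0.6 (the submitters' processing notes also name StringTie 2.2.3), and tested counts with DESeq2. The deposited values are FPKM, made by the authors from gene length and a divisor for each library. Once these were taken out, 100% were whole reads within 0.05. The divisor was not the total of reads on genes. It was 2.86e+07 in non-diabetic wound 1, below its 33516206 reads on genes, and 4.47e+07 in diabetic wound 2, above its 37922563. How the divisor was set is not given in the sources used here.

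Genes that reached 0.5 FPKM in 4 or more libraries entered a fit of log2(FPKM + 0.5) by limma 3.58.1 (R 4.3.3, eBayes with trend) and Benjamini-Hochberg adjustment over all 13956 genes tested. Calls required an adjusted p below 0.05 and a log2 fold change beyond 0.5 in either direction. Single genes and 4 ratios were compared by two-sided exact permutation over all splits. The procedure was tested on simulated data, where the limma trial used larger log2 changes than those of the members. That trial does not show how often changes of the members' size would be called. The log2 scale with a pseudocount understates changes of low genes.

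The members, gene lists, ratios and tests were chosen with earlier results of these data known. The genes named are the members, the called and most abundant genes of each list, their 3 most alike genes (1 of them not reported here), and PTPRC, LTB4R2 and marker genes. Named outside that rule, after values were seen, were CYSLTR2, MGST2, MGST3, ALOXE3, PTGS2, PTGES, TBXAS1, HPGDS and PLA2G5. Of the listed symbols, DPEP2, DPEP3, ALOX15B, OXER1, FPR2, PLA2G4C, PLA2G10, PLAAT3 and several markers, KRT14 and the tryptases among them, did not match a gene symbol and were not analysed here. Lists of mast cell, eosinophil, platelet, T and NK cell, fibroblast, endothelial, sebaceous gland, and pericyte and smooth muscle genes had no gene called higher and 1, RGS5 in the last list, called lower (limma), and 1 of 9 keratinocyte genes, KRT15, was called higher. Neither call held without the 2 keratinocyte-poor wounds (adjusted p = 0.130 for RGS5 and 0.0892 for KRT15). At an unadjusted p under 0.05 there was 1 gene each in the mast cell, eosinophil and T and NK cell lists (FCER1A, CCR3 and KLRB1). There were 2 in the pericyte and smooth muscle list, and none in the platelet, fibroblast, endothelial and sebaceous gland lists. CCR3 and KLRB1 passed the filter through the diabetic wounds alone. Alternatives changed the pseudocount, filter, scaling, spread estimate, library weights, L or R letter of the library names, replicate block and wounds included, or used voom on recovered reads. Tables and figures were made with SciPy 1.17.1, matplotlib 3.10.9, pandas 2.3.3 and numpy 2.4.6 under Python 3.11.15.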

Additional observations from a re-analysis of the deposited data

Results flagged for a closer look

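LTA4H was at 15.2 FPKM in non-diabetic wound 1, far below the other 3 non-diabetic wounds for their range (the gap to the nearest was 0.962 of the range, past Dixon's critical value for 4 samples). PLA2G4A was at 3.57 FPKM in diabetic wound 1, far above the other 6 diabetic wounds (0.743 of the range, past the critical value for 7). The first is a keratinocyte-poor wound, and the second had the highest PTGS2 level, 45.3 FPKM. In all, 28 groups of values were examined in this way, and chance marks about 1 in 20.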

How the results depend on the processing

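No member was called under any of the 24 alternatives except library weights, under which 2 were called higher, LTC4S and GGT5. ALOX5, ALOX5AP, LTA4H, CYSLTR1 and PLA2G4A kept their sign and stayed short of the threshold in every alternative that gave a value (CYSLTR1 did not pass a filter at 1 FPKM), and so did LTC4S and GGT5 outside library weights. LTB4R turned to -0.12 with library weights, -0.048 without both keratinocyte-poor wounds, -0.09 without diabetic wound 1 and -0.20 without non-diabetic wound 1, and leaving out 1 wound moved it between -0.20 and 0.34. ALOX12 turned to 0.037 without non-diabetic wound 2 and moved between -0.70 and 0.037. Among the wounds with the letter L, ALOX5AP to PTPRC was -0.36 and LTC4S to LTA4H -0.17, against 0.83 and 1.18 among those with the letter R. Over all genes, 188 were called higher and 231 lower; library weights gave 406 and 416, the set without both keratinocyte-poor wounds 106 and 81, and leaving out 1 wound at a time 104 to 236 and 75 to 247. The lowest counts came without non-diabetic wound 3 for higher genes (104) and without non-diabetic wound 1 for lower genes (75). The replicate block left 11 calls higher and 5 lower, and GGT5 under it was 0.66 (limma adjusted p = 0.449). With voom on recovered reads GGT5 was also 0.66 and not called (limma adjusted p = 0.0938). Wounds with the same number did not deviate together (correlations of -0.27, 0.22, 0.07 and -0.48), so the numbers do not pair the wounds. Leaving out 1 wound moved ALOX5 between -0.73 and -0.43, ALOX5AP between 0.20 and 0.32, LTC4S between 0.58 and 0.93, GGT5 between 0.45 and 0.60, PLA2G4A between -0.31 and -0.05, LTA4H between 0.08 and 0.20 and CYSLTR1 between -0.30 and -0.13. Among the other genes of the route, PLA2G12A, PTGS1 and GPX1 stayed called in 23 of 24 alternatives, all but the block, and FADS1 in 19. Rescaling all libraries to one total moved the median of all genes to -0.06. The cause of these changes was not tested. Few reads limit LTC4S and ALOX15.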
